A study of Mus musculus with 16 samples.

Results

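Cytosolic ribosomal protein genes, which encode the proteins of the small and large subunits of the ribosome, were followed in the uterus of ovariectomised mice 6 h after an injection of 17β-estradiol (E2), the main estrogen. Members were the genes whose name on the array starts with Rpl or Rps and a digit, together with Rplp0, Rplp1, Rplp2 and Rpsa. Names of the Rps6k kinases and of pseudogenes were left out. The rule gave 86 of the 34797 gene names on the array, and 85 of them were tested. Rpl10l, a copy of Rpl10 known for its role in the testis, was well above background on at most 1 array with either of its 2 probes and was not tested. Of the 85 genes, 77 encode the canonical proteins (46 of the large and 31 of the small subunit), 7 are paralogues, and Rps19bp1 is no ribosomal protein but a nucleolar protein that binds Rps19. The names were taken from the array, where Rps4y2 stands for a transcript that RefSeq lists as Rps4l, a transcribed pseudogene.

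There were 4 groups of 4 samples with 1 one-colour Cy3 array each. The first group, Arg260 E2, held uteri of mice with the Arg260 form of estrogen receptor alpha (ERα) that were given E2 at 8 µg/kg. Arg260 PLB mice were given castor oil with 0 µg/kg. WT E2 and WT PLB were wild-type mice given the same treatments. ERα is the main receptor for E2 in the uterus, and the labels name the residue without saying how it was altered. All mice had lost their ovaries at 4 weeks of age, 2 to 3 weeks before the subcutaneous injection, and RNA came from the uterus. Whether the 4 samples of a group were 4 animals is not given by the labels, and p-values here measure the spread between these samples, which may be technical.

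Every array held 59305 non-control spots, of which 61.6% to 70.6% were well above background and 0 were saturated. The lowest and the highest Pearson correlation between 2 arrays of a group were 0.980 and 0.993 over genes, which are not independent of each other. Replicates 1 and 2 of every group shared one scan time and replicates 3 and 4 another. Arrays with the same scan time were taken to be on the same slide, and are called slide 1 and slide 2 below. Markers of epithelium (8 of 8), stroma (7 of 7) and smooth muscle (6 of 6) were well above background on all 16 arrays. In bulk tissue, fewer cells of a type and less RNA per cell cannot be told apart. The mean log2 level of the stroma markers was 3.13 to 3.66 in Arg260 E2 and 4.15 to 4.85 in Arg260 PLB, and 2.99 to 4.00 in WT E2 and 3.98 to 4.68 in WT PLB, with 5 of 7 called lower in each genotype. The adipocyte markers ranged from -3.70 to -0.62 in Arg260 E2 and from -1.03 to 0.53 in Arg260 PLB, and from -5.92 to -1.64 in WT E2 and from -0.70 to 1.44 in WT PLB, with 2 of 5 called lower in Arg260 and 5 of 5 in WT. The leukocyte markers reached 1.64 on 1 Arg260 PLB array, against at most 0.25 on any Arg260 E2 array. The part of these markers in the results was not tested.

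Ribosomal proteins are made in equal numbers in growing cells and are assembled in the nucleolus onto ribosomal RNA. Their mRNAs are among the most abundant of the cell, and most carry a run of pyrimidines at their 5′ end, the TOP sequence, through which mTOR signalling sets how many of them are translated. Estrogen is known to raise protein synthesis and ribosome production in the uterus within hours. The level of these mRNAs and their rate of translation are separate quantities, and the arrays measured the level.

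The starts of the genes were set beside each other because the shared pyrimidine start is the feature that defines the family at the mRNA level. RefSeq promoter sequences of build GRCm38.p6 were found by symbol for 63 of the 86 members, 56 of them canonical. For each gene the first promoter listed was used, and any further starts of a gene were not searched. The letters CTTTC were searched on the sense strand, within 50 bases of the start on either side. They occurred in 29 of 56 canonical members (51.8%) and in 12.6% of all 27025 promoters. The windows that follow run from 60 bases before to 30 bases after the start, 5′ to 3′, with CTTTC in capitals. They show a pair of canonical genes with the letters at the start, then a canonical gene that rose with E2 and one that fell, and last the paralogues and Rps19bp1 that rose.
Rpl15 (chr14:18270957-18271046, minus strand): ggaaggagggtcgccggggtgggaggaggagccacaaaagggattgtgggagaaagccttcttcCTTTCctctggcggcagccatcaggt
Rps27 (chr3:90213619-90213708, minus strand): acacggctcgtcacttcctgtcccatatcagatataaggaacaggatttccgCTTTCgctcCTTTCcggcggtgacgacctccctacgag
Rps2 (chr17:24720003-24720092, plus strand): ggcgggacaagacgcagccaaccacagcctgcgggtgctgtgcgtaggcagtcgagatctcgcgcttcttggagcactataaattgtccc
Rps21 (chr2:180257319-180257408, plus strand): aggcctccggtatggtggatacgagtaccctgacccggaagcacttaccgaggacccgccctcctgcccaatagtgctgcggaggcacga
Rps27l (chr9:66946026-66946115, plus strand): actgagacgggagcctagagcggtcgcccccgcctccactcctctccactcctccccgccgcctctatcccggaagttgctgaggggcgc
Rpl36al (chr12:69184038-69184127, minus strand): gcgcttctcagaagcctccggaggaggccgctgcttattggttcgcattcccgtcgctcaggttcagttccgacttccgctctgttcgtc
Rpl7l1 (chr17:46782627-46782716, minus strand): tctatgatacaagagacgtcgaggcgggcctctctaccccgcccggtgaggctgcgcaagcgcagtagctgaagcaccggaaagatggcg
Rps19bp1 (chr15:80264277-80264366, minus strand): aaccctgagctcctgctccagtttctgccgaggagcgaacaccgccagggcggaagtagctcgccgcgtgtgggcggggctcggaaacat
In Rpl15 the letters began at base 5 of the transcript, and in Rps27 at 8 bases before the start and at base 2. Those of Rps21 and Rpl36al began at bases 39 and 32, outside the windows shown, and Rps2, Rps27l, Rpl7l1 and Rps19bp1 had none within 50 bases of the start. The letters CCGGAA, part of the site that ETS factors bind, were searched on both strands of the same stretch and occurred in 15 canonical members (26.8%) and in 8.43% of all promoters. In the windows shown they stood in Rps21, Rps27, Rps27l and Rpl7l1, and in Rps27 they overlapped a CTTTC. The letters AAGATGG, part of the YY1 site, occurred in 5 canonical members (8.93%) and in 2.70% of all promoters, TATAA in 10 (17.9%) and 9.52%, and CACGTG, the E-box bound by Myc, in 2 (3.57%) and 2.99%, each on either strand. CTTTTC on the sense strand occurred in 8 (14.3%) and in 3.71% of all promoters. The estrogen response element, searched as the arm GGTCA followed by 3 free bases and the reverse complement of that arm, was in 0 of the 56 canonical members and in 0.0666% of all promoters over the whole 250 bases before and 50 after the start. These counts describe letters only.

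The first question was how E2 changed the canonical ribosomal protein mRNAs. They stayed close to their level in PLB uteri in both genotypes, and 0 of 77 changed by 2-fold or more. In Arg260, 25 of 77 passed the test, 11 higher and 14 lower, and in WT 18 did, 9 higher and 9 lower. Their log2 changes had a median of -0.05 in Arg260 (range -0.47 to 0.57) and of -0.05 in WT (-0.50 to 0.52). Of the 77 genes, 90.9% in Arg260 and 94.8% in WT lay within 0.3 log2 units of 0. Of all 25892 genes tested, 28.4% in Arg260 and 29.2% in WT did so. The canonical members were far brighter than most of these genes, with their median at percentile 99.3 to 99.4 of the genes on each array. The highest processed signal of their probes was 482222, beside 558097 for any non-control spot. The part of brightness in the difference was not tested.

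Values here and below are log2 signals relative to the 75th percentile of the array, changes are E2 minus PLB from limma with 4 arrays per group, and a gene was called at a Benjamini-Hochberg adjusted p under 0.05 over all genes. Over all genes, 64.3% were called in Arg260 (33.6% higher, 30.7% lower, and 28.6% called and at least 2-fold) and 63.5% in WT (31.9% higher, 31.7% lower, and 28.4% called and at least 2-fold). Counting all 85 members, 16 were higher and 14 lower in Arg260 (5 of the 30 at least 2-fold), and 14 were higher and 9 lower in WT (4 of the 23 at least 2-fold). The share called was 35.3% of the members in Arg260 and 27.1% in WT, lower than that of all genes in each. Of the called canonical members, 21 of 25 in Arg260 and 15 of 18 in WT had E2 and PLB arrays that did not overlap. This count was not made over all called genes, so it adds nothing to the calls themselves. The median standard deviation (SD) within groups was 0.087 for canonical members and 0.199 for all genes. With the median 95% interval at 0.156 to either side of the change, smaller shifts were not detectable for a member of typical spread.

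By subunit, 7 of 46 large-subunit genes were called higher and 6 lower in Arg260, and 6 and 6 in WT. Of 31 small-subunit genes, 4 were called higher and 8 lower in Arg260, and 3 and 3 in WT. In Arg260 the large-subunit genes called higher were Rpl27, Rpl15, Rpl7a, Rpl24, Rpl41, Rpl18 and Rpl28, and those called lower included Rpl21, Rpl37a, Rpl17, Rpl9 and Rpl27a. In WT, Rpl28 and Rpl9 dropped out of these lists and Rpl30 joined the lower one. The small-subunit genes called higher included Rps2 and Rps26 in both genotypes and Rps13 in Arg260. Those called lower were Rps21, Rps20 and Rps19 in both genotypes, and Rps24, Rps23, Rps29, Rps28 and Rps4x in Arg260. The same 17 genes were called in both, each in the same direction, which is 68% of those called in Arg260 and 94.4% of those called in WT. This overlap was not counted over all genes, and both tests share their estimate of the spread. It is therefore no trait shown to be particular to the members. Whether a call in one genotype alone differs from the other was tested in the comparison of responses below.

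**Figure D1:**
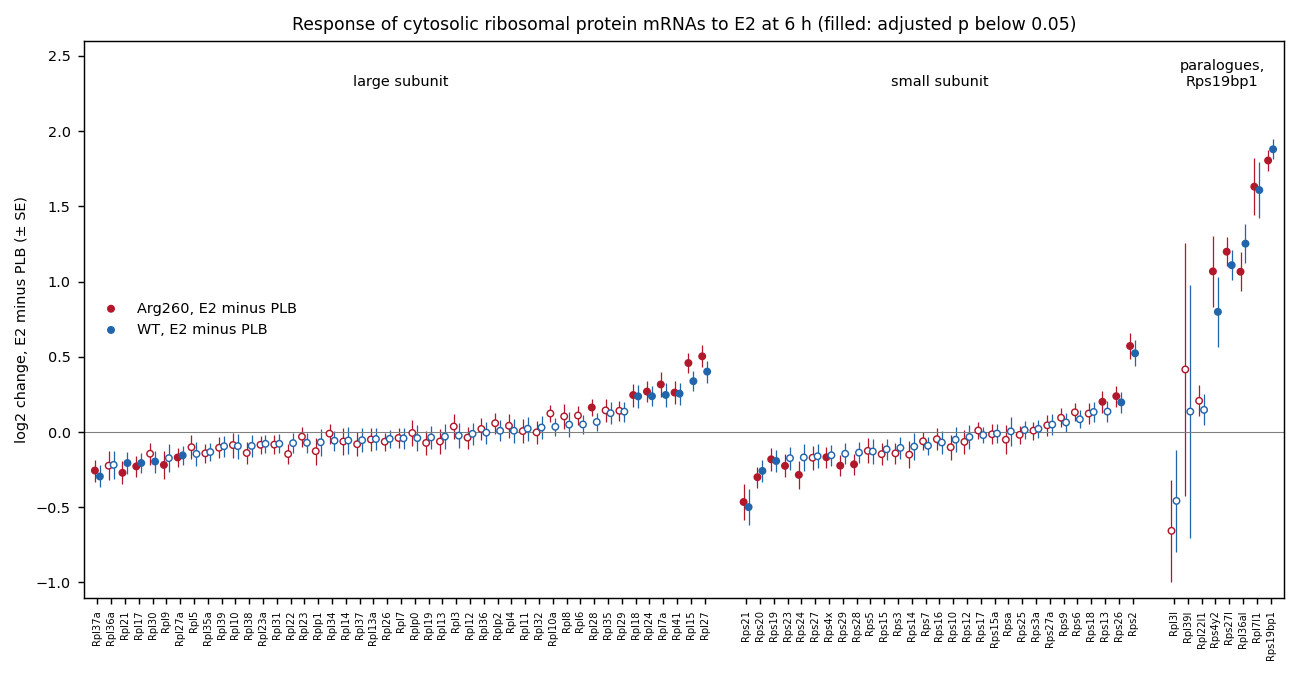
Log2 change with E2 (E2 minus PLB, vertical axis) of 82 of the 85 tested genes, with its standard error, in Arg260 (red) and WT (blue); filled points passed an adjusted p of 0.05. Canonical genes of both subunits lie between -0.50 and 0.57, while Rps19bp1 and 4 paralogues lie at 0.80 to 1.88.

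Rplp0, Rps6, Rpl5, Rpl11, Rpsa and Rps27a were to be named whatever their change, and none of them passed the test in either genotype. Rplp0, the base of the stalk that recruits elongation factors, read 8.24, 8.36, 8.35 and 8.34 in Arg260 E2 and 8.38, 8.35, 8.18 and 8.41 in Arg260 PLB. In WT E2 it read 8.13, 8.36, 8.31 and 8.46 and in WT PLB 8.23, 8.50, 8.44 and 8.26. The groups overlapped in both genotypes, with a change of -0.01 in Arg260 (adjusted p = 0.952 in limma, 95% interval -0.19 to 0.18) and -0.04 in WT (adjusted p = 0.705, -0.22 to 0.14). None of the 3 stalk genes was called in either genotype. Rps6, the target of the S6 kinases, changed by 0.13 in Arg260 (adjusted p = 0.0673 in limma) and 0.08 in WT (0.231). Rpl5 and Rpl11, which join the 5S particle and can restrain Mdm2, changed by -0.10 and 0.01 in Arg260 and by -0.15 and 0.02 in WT. Rpsa, also known as a laminin receptor precursor, changed by -0.05 in Arg260 and 0.00 in WT. Rps27a, made as a fusion with ubiquitin, changed by 0.04 in Arg260 and 0.05 in WT. The standard errors of these changes were 0.0594 to 0.0955.

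Among canonical genes, Rps2, Rpl27 and Rpl15 rose most in both genotypes. Rps2 lies near the mRNA entry channel of the small subunit. It read 7.84, 7.73, 7.67 and 7.81 in Arg260 E2, against 7.19, 7.15, 6.996 and 7.42 in Arg260 PLB. In WT E2 it read 7.49, 7.68, 7.66 and 7.71, against 7.07, 7.21, 7.09 and 7.07 in WT PLB. All E2 arrays lay above all PLB arrays of their genotype, and the rise was 0.57 in Arg260 (1.49-fold, adjusted p = 3.66e-05 in limma) and 0.52 in WT (1.44-fold, 8.63e-05), each with a standard error of 0.0862. The files place this probe on mm9 at chr17:42864841-42864900 and a second probe of Rps2, which rose by 0.45 in Arg260 and 0.44 in WT, at chr17:24857583-24857642. These are separate places on chromosome 17, so that it is uncertain which copy the brightest probe reads.

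Rpl27, a large-subunit protein mutated in some families with Diamond-Blackfan anaemia in humans, read 7.52, 7.54, 7.35 and 7.46 in Arg260 E2 and 6.96, 6.97, 6.92 and 7.01 in Arg260 PLB. In WT E2 the values were 7.37, 7.36, 7.48 and 7.26 and in WT PLB 6.98, 6.95, 7.10 and 6.82. The groups did not overlap, and it rose by 0.50 in Arg260 (1.42-fold, adjusted p = 2.38e-05 in limma) and by 0.40 in WT (1.32-fold, 0.000202), each with a standard error of 0.0726. Rpl15, which has been linked to the same anaemia, read 7.54, 7.43, 7.39 and 7.49 in Arg260 E2 and 7.01, 6.90, 6.98 and 7.12 in Arg260 PLB. It read 7.21, 7.44, 7.38 and 7.30 in WT E2 and 6.93, 7.03, 6.998 and 7.01 in WT PLB. Here too every E2 array was higher, by 0.46 in Arg260 (1.37-fold, adjusted p = 3.16e-05 in limma) and 0.34 in WT (1.26-fold, 0.000516), each with a standard error of 0.0681. The 3 genes kept a rise in both genotypes under every scaling tried, although the call of Rpl15 in WT was lost when arrays were scaled by the probes well above background on all 16 arrays (0.13, adjusted p = 0.0775). Within slide 1 and slide 2 the changes were 0.61 and 0.53 for Rps2 in Arg260 and 0.45 and 0.60 in WT. Rpl27 changed by 0.56 and 0.44 in Arg260 and by 0.39 and 0.41 in WT, and its calls did not hold within slide 2 (adjusted p = 0.0630 in Arg260 and 0.0799 in WT). Rpl15 changed by 0.53 and 0.39 in Arg260 and by 0.34 and 0.33 in WT, where neither slide alone gave a call (adjusted p = 0.0533 and 0.0709).

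Rps21, Rps20 and Rpl37a were among the canonical genes that fell in both genotypes. Rps21, a small-subunit protein, read 5.49, 5.64, 5.23 and 5.40 in Arg260 E2 and 5.97, 5.87, 6.08 and 5.71 in Arg260 PLB. In WT it read 5.57, 5.35, 5.34 and 5.52 with E2 and 6.17, 5.94, 6.03 and 5.64 with PLB. Each E2 array lay below each PLB array of its genotype. Rps21 fell by 0.47 in Arg260 (1.38-fold lower, adjusted p = 0.00359 in limma) and by 0.50 in WT (1.41-fold lower, 0.0022), each with a standard error of 0.121. Within slide 1 and slide 2 its change was -0.35 and -0.58 in Arg260 and -0.59 and -0.40 in WT, and of these 4 values the one called was that of WT in slide 1. Rps20, of the head of the small subunit, read 8.11, 8.15, 8.11 and 8.25 in Arg260 E2 and 8.54, 8.51, 8.31 and 8.46 in Arg260 PLB. It read 8.08, 8.15, 8.17 and 8.26 in WT E2 and 8.33, 8.47, 8.52 and 8.38 in WT PLB. The groups did not overlap, and it fell by 0.30 in Arg260 (1.23-fold lower, adjusted p = 0.00177 in limma) and 0.26 in WT (1.20-fold lower, 0.00516), each with a standard error of 0.0708.

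Rpl37a, a zinc-binding protein of the large subunit, fell by 0.26 in Arg260 and 0.30 in WT. Rpl21 fell by 0.27 in Arg260 and 0.21 in WT, and Rpl17 fell by 0.23 in Arg260 and 0.21 in WT. Rpl30 stood at -0.14 in Arg260 without a call and fell by 0.20 in WT. Rps24 (-0.28) and Rps23 (-0.22) were called in Arg260, against uncalled values of -0.17 for each in WT. Rps19, the gene most often mutated in Diamond-Blackfan anaemia, fell by 0.18 in Arg260 (adjusted p = 0.0491 in limma) and by 0.19 in WT (0.0384), and its groups overlapped in both. The calls for lower members depended on the scaling and on single arrays. When each array was scaled by its median, 3 members were called lower in Arg260 and 1 in WT. Without WT E2 replicate 1 there were 5 lower members in WT, and without WT PLB replicate 3 there were 4, against 9 with all arrays.

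**Figure D2:**
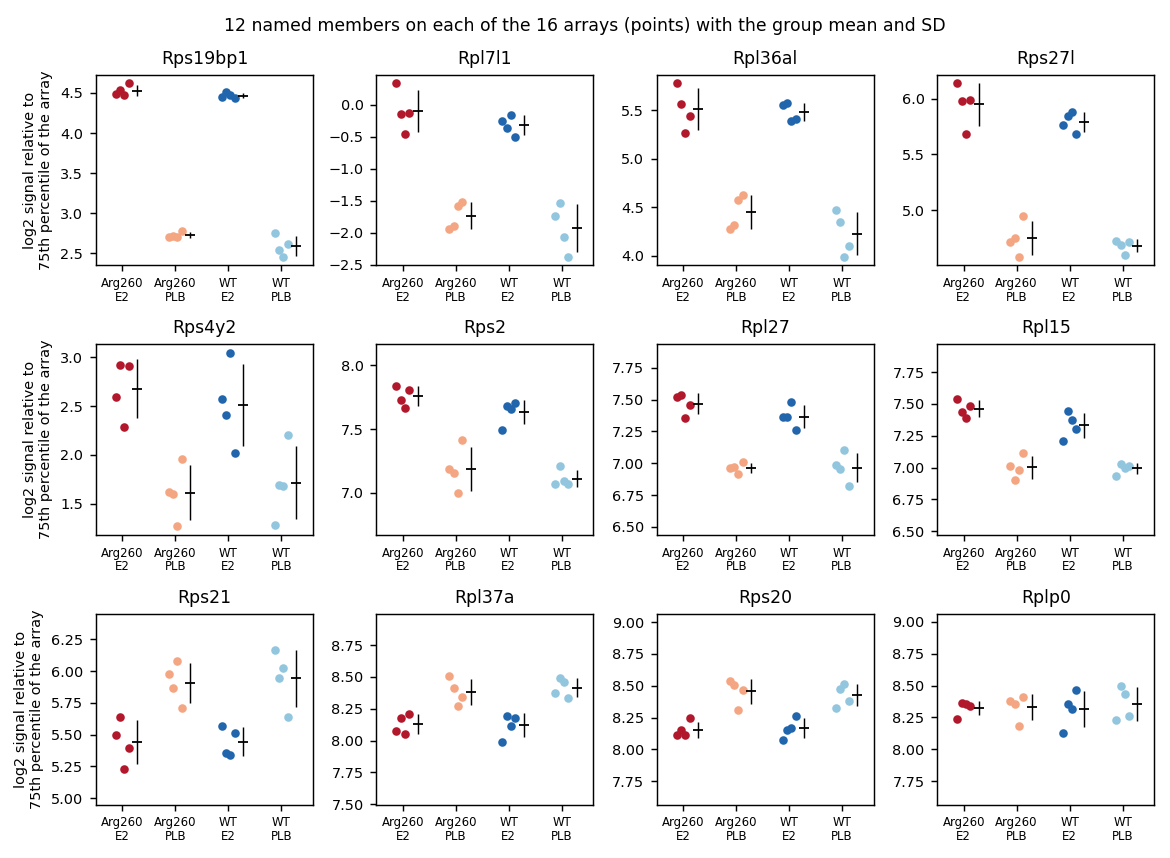
Log2 signal relative to the 75th percentile of the array (vertical axis) of 12 named members on each of the 16 arrays (points), with the group mean and SD beside them; groups run Arg260 E2, Arg260 PLB, WT E2 and WT PLB from left to right. The first 5 genes rise by 0.80 to 1.88, Rps2, Rpl27 and Rpl15 by 0.34 to 0.57, Rps21, Rpl37a and Rps20 fall by 0.26 to 0.50, and the groups of Rplp0 overlap.

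The members outside the canonical set behaved differently from one another, and the strongest rises of the family were theirs. Rps19bp1, known as AROS, an activator of the deacetylase Sirt1 that binds Rps19, read 4.48, 4.53, 4.47 and 4.62 in Arg260 E2 and 2.70, 2.71, 2.70 and 2.78 in Arg260 PLB. In WT it read 4.45, 4.51, 4.48 and 4.44 with E2 and 2.75, 2.54, 2.46 and 2.62 with PLB. The E2 and PLB arrays were far apart, and the gene rose by 1.80 in Arg260 (3.49-fold, adjusted p = 4.91e-11 in limma) and 1.88 in WT (3.68-fold, 3.75e-11), each with a standard error of 0.0668. Its probe lies on mm9 at chr15:80091168-80091227.

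Rpl7l1, whose yeast relative Rlp7 acts in the assembly of the large subunit, read 0.34, -0.15, -0.45 and -0.14 in Arg260 E2 and -1.93, -1.89, -1.58 and -1.52 in Arg260 PLB. It read -0.25, -0.37, -0.15 and -0.51 in WT E2 and -1.74, -1.53, -2.07 and -2.37 in WT PLB. The groups stood apart, with a rise of 1.63 in Arg260 (3.10-fold, adjusted p = 2.53e-06 in limma) and 1.61 in WT (3.05-fold, 2.96e-06), each with a standard error of 0.188. Its canonical counterpart Rpl7 changed by -0.04 in both genotypes and was not called.

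Rps27l, a paralogue of Rps27 known as a p53 target in human cells, read 6.14, 5.98, 5.68 and 5.99 in Arg260 E2 and 4.71, 4.75, 4.58 and 4.95 in Arg260 PLB. In WT the values were 5.77, 5.84, 5.88 and 5.68 with E2 and 4.73, 4.69, 4.60 and 4.71 with PLB. All E2 values were higher than all PLB values, and the rise was 1.20 in Arg260 (2.29-fold, adjusted p = 6.50e-08 in limma) and 1.11 in WT (2.16-fold, 1.49e-07), each with a standard error of 0.0975. Rps27 itself changed by -0.17 in Arg260 (adjusted p = 0.0731) and -0.16 in WT (0.0902). On a list of 8 genes of the 5S particle and the p53 pathway, 4 rose and 1 fell in each genotype, and the 62.5% called is close to the share of all genes called (64.3% in Arg260 and 63.5% in WT). The largest rises in WT were those of Cdkn1a, a p53 target (3.94 in Arg260 and 4.02 in WT), and of Pak1ip1, which encodes a nucleolar protein (1.70 in Arg260 and 1.56 in WT). Gtf3a, which encodes the transcription factor of 5S rRNA genes, fell by 0.42 in Arg260 and by 0.48 in WT. Trp53, which encodes p53 and was named after its values had been seen, rose by 1.25 in Arg260 and 1.32 in WT.

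Rpl36al, a copy of Rpl36a that arose by retroposition, read 5.78, 5.57, 5.27 and 5.44 in Arg260 E2 and 4.28, 4.32, 4.58 and 4.62 in Arg260 PLB. It read 5.55, 5.57, 5.39 and 5.41 in WT E2 and 4.47, 4.35, 3.99 and 4.10 in WT PLB. Again the groups did not overlap, and it rose by 1.07 in Arg260 (2.09-fold, adjusted p = 3.70e-06 in limma) and 1.25 in WT (2.38-fold, 7.09e-07), each with a standard error of 0.128. Rpl36a changed by -0.22 in both genotypes (adjusted p = 0.0520 in Arg260 and 0.0580 in WT). Rps4y2 read 2.59, 2.92, 2.28 and 2.91 in Arg260 E2 and 1.62, 1.60, 1.27 and 1.96 in Arg260 PLB, and 2.57, 2.41, 3.05 and 2.02 in WT E2 and 1.28, 1.69, 1.68 and 2.20 in WT PLB. The groups were apart in Arg260 and overlapped in WT. It rose by 1.07 in Arg260 (2.10-fold, adjusted p = 0.00104 in limma) and 0.80 in WT (1.74-fold, 0.00816), each with a standard error of 0.235, and within slide 2 neither call held (0.99 with adjusted p = 0.122 in Arg260, and 0.59 with 0.323 in WT). Its counterpart Rps4x changed by -0.17 in Arg260 (adjusted p = 0.0454) and -0.15 in WT (0.0636). Near-identical copies share sequence, so that the signal of one copy on the probe of another cannot be told apart here.

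The other paralogues did not pass the test. Rpl22l1, which Rpl22 represses in mice, changed by 0.21 in Arg260 (adjusted p = 0.0920 in limma, 95% interval -0.01 to 0.43) and 0.15 in WT (0.228, -0.07 to 0.37), and Rpl22 by -0.15 in Arg260 and -0.07 in WT. Rpl3l, the striated-muscle form of Rpl3, changed by -0.66 in Arg260 and -0.46 in WT with standard errors of 0.338, and Rpl3 by 0.04 in Arg260 and -0.02 in WT. Of the 5 striated muscle markers listed, 3 were tested and 2 were called higher in each genotype, with a mean log2 level of -1.33 to -1.001 in Arg260 E2 and -2.56 to -1.79 in Arg260 PLB, and of -1.28 to -0.89 in WT E2 and -2.81 to -2.25 in WT PLB. Rpl3l and Rpl39l were the dimmest members and had the widest spread within groups. Rpl39l, a form known from the testis, was well above background on 1 array in each Arg260 group and on 2 arrays in each WT group, and its changes of 0.42 in Arg260 and 0.14 in WT had standard errors of 0.840. Rpl39, its counterpart, changed by -0.10 in Arg260 and -0.09 in WT, and Rpl10, the counterpart of Rpl10l, by -0.09 in each. Of the 7 paralogues tested, 4 were called higher in each genotype and 0 lower, with a median of 1.07 in Arg260 and 0.80 in WT. The 57.1% called in each genotype is near the share of all genes called (64.3% in Arg260 and 63.5% in WT).

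The small calls in the canonical set depended on how the arrays were put on 1 scale. With each array scaled by its median, 29 members were called higher and 3 lower in Arg260, and 29 and 1 in WT. With scaling by the 75th percentile of the probes that were well above background on all 16 arrays, 8 were higher and 61 lower in Arg260, and 7 and 57 in WT. The median change of all genes was 0.02 in Arg260 and -0.02 in WT in the main scaling, 0.15 in Arg260 and 0.12 in WT with the array median, and -0.23 in each genotype with the last scaling. The members' median was -0.04 in each genotype, then 0.10 in Arg260 and 0.11 in WT, and then -0.29 in Arg260 and -0.24 in WT. Relative to the median of all genes, the members' median lay between -0.06 and -0.01 in Arg260 and between -0.04 and -0.0039 in WT over the 7 ways of scaling that were tried. The main scaling, the array median and the last scaling each subtract 1 constant per array. That shifts all genes alike, so this gap is the same under them by construction. Within slide 1, 9 members were called higher and 2 lower in Arg260, and 7 and 2 in WT. Within slide 2, 6 were called higher and 0 lower in Arg260, and 5 and 0 in WT, each with 2 arrays per group. The rises of Rps19bp1, Rpl7l1, Rpl36al and Rps27l were called under each of the 32 alternatives in both genotypes.

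**Figure D3:**
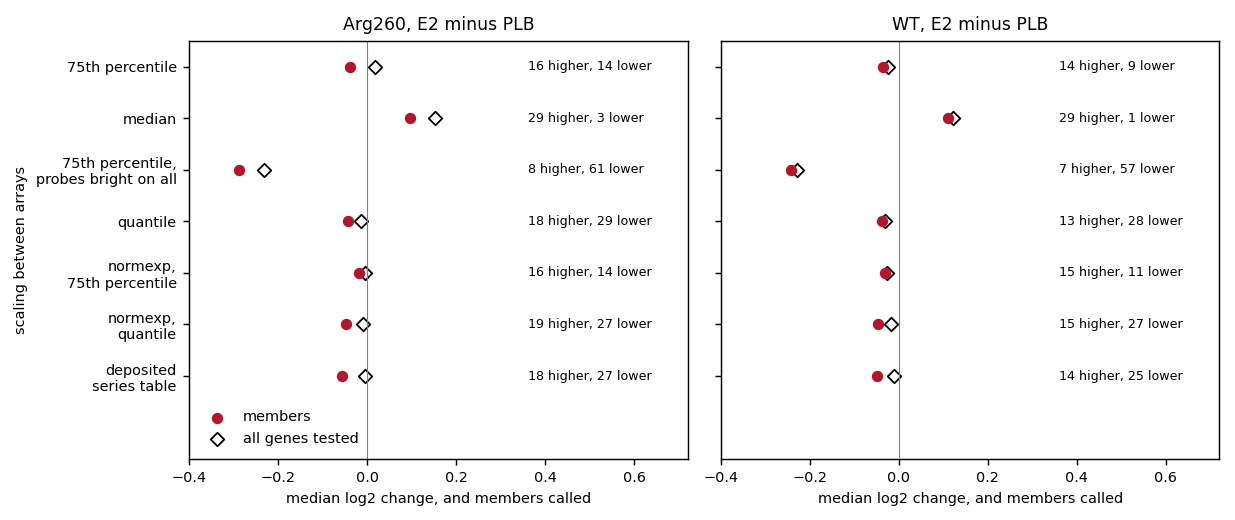
Median log2 change with E2 (horizontal axis) of the 85 members (filled circles) and of all genes tested (open diamonds) under 7 ways of scaling the arrays (rows), in Arg260 on the left and WT on the right, with the numbers of members called. The circles stay within 0.06 of the diamonds, while the split of calls runs from 29 higher and 1 lower to 8 higher and 61 lower.

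The genes that build the ribosome were set beside the genes of its proteins, in lists that were chosen with earlier results of these data known. Of 43 genes of pre-rRNA processing and RNA polymerase I, 41 rose and 0 fell in each genotype, with a median of 1.84 in Arg260 and 1.76 in WT. Beside 64.3% of all genes called in Arg260 and 63.5% in WT, 95.3% of this list was called in each genotype. The largest rises in WT were those of the processing factors Utp18 (2.90 in Arg260 and 3.86 in WT) and Rrp12 (3.57 in Arg260 and 3.84 in WT). Further genes of the lists were named for their known roles after their values had been seen. The nucleolar methyltransferase Fbl rose by 1.78 in Arg260 and 1.76 in WT, nucleolin (Ncl) by 1.74 in Arg260 and 1.65 in WT, and Rrn3, which recruits RNA polymerase I, by 1.61 in Arg260 and 1.68 in WT. Imp3 and Noc3l were not called. Of 29 chaperones, import carriers and late assembly factors, 27 rose and 1 fell, with a median of 1.61 in Arg260 and 1.52 in WT. The share called was 96.6% in each genotype, beside the same shares of all genes. Bysl, a factor of small-subunit assembly, rose by 3.36 in Arg260 and 3.44 in WT. Rrs1, which helps to load the 5S particle, rose by 3.12 in Arg260 and 3.22 in WT. Grwd1, the chaperone of Rpl3, rose by 2.72 in Arg260 and 2.96 in WT, and the importin Ipo7 by 1.92 in Arg260 and 1.96 in WT. Gltscr2, a nucleolar protein, was the one that fell, by 0.38 in Arg260 and by 0.49 in WT. The canonical ribosomal protein genes stood at a median of -0.05 in each genotype, and the median standard error was 0.096 for the processing genes, 0.098 for the assembly genes and 0.073 for the canonical genes.

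Most genes for proteins of the mitochondrial ribosome, which are also made in the cytosol, rose. Of 76 genes, 67 rose and 2 fell in Arg260 (median 0.76) and 64 rose and 2 fell in WT (median 0.74). The share called was 90.8% in Arg260 and 86.8% in WT, beside 64.3% of all genes in Arg260 and 63.5% in WT. Mrps7 rose by 1.91 in each genotype and Mrpl12 by 1.75 in Arg260 and 1.92 in WT, while Mrpl34 fell by 1.33 in Arg260 and by 1.30 in WT and Mrpl14 fell by 0.32 in Arg260 and by 0.31 in WT. The highest point, Mrpl51, stood at 1.13 in Arg260 and 4.11 in WT with standard errors of 1.97 and was not called. Of 20 other genes with a TOP start or of translation elongation, 10 rose and 2 fell in Arg260 (median 0.15), and 9 rose and 3 fell in WT (median 0.09). The 60% called in each genotype is near the share of all genes called (64.3% in Arg260 and 63.5% in WT). The elongation factor gene Eif5a rose by 1.82 in Arg260 and 1.81 in WT, and Hnrnpa1, which encodes an RNA-binding protein, by 1.002 in Arg260 and 0.915 in WT. The initiation factor gene Eif4b fell by 0.33 in Arg260 and by 0.36 in WT, and Eif3h stood at -0.18 in Arg260 without a call and fell by 0.28 in WT. The medians of this list are smaller than the shift of all genes between scalings. Fau and Gnb2l1, which encode ribosomal proteins under other names and so lie outside the rule, changed by 0.02 and 0.04 in Arg260 and by -0.02 and 0.04 in WT and were not called.

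**Figure D4:**
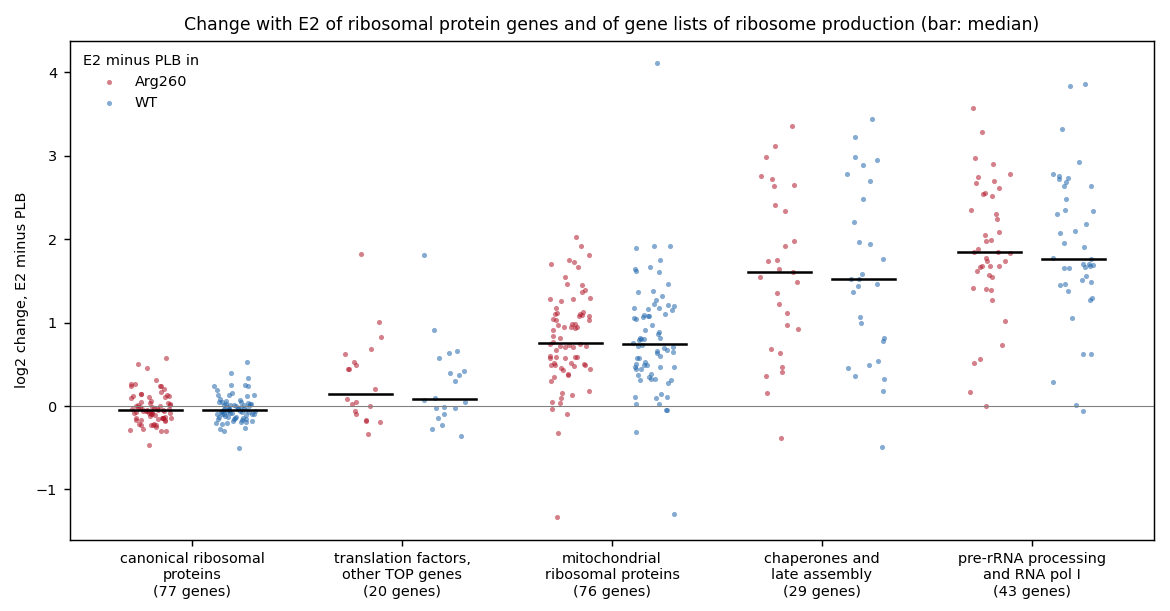
Log2 change with E2 (vertical axis) of each gene (points) in 5 sets, in Arg260 (red, left of each pair) and WT (blue), with the median as a bar. The 77 canonical ribosomal protein genes centre on -0.05, mitochondrial ribosomal protein genes on 0.76 in Arg260 and 0.74 in WT, and pre-rRNA processing genes on 1.84 in Arg260 and 1.76 in WT.

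Regulators of these mRNAs changed in both directions. Of 18 genes of TOP mRNA and S6 kinase signalling, 10 rose and 4 fell in Arg260, and 10 rose and 5 fell in WT, or 77.8% called in Arg260 and 83.3% in WT, against 64.3% of all genes in Arg260 and 63.5% in WT. Larp1, which binds the TOP sequence, rose by 1.85 in Arg260 and 1.77 in WT, and Eif4ebp1, an mTOR target that blocks the assembly of the cap-binding complex, by 2.55 in Arg260 and 2.47 in WT. Among the sestrins, which restrain mTOR complex 1, Sesn2 rose by 3.08 in Arg260 and 3.33 in WT. Sesn1 fell by 3.47 in each genotype, and Sesn3 fell by 1.85 in Arg260 and by 1.49 in WT. Of 10 transcription factors known for ribosomal protein promoters, 9 rose in Arg260 and 6 in WT, and 0 fell. The WT share of 60% is near the 63.5% of all genes called there, and the Arg260 share of 90% stands beside 64.3%. The difference between the 2 genotypes' responses was called for 0 of the 10 genes in limma, with 1 at an unadjusted p under 0.05. Myc rose by 0.96 in Arg260 and 1.12 in WT, and Mycn by 1.17 in Arg260 and 1.74 in WT. Among canonical members with CTTTC near the start (29 genes), the median change was -0.06 in Arg260 and -0.05 in WT, and among the 27 without it the median was -0.03 in Arg260 and -0.04 in WT.

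The array carries more than 1 probe for many members, and the probes of a gene did not always give the same change. Of the 85 genes, 58 had more than 1 passing probe, with 104 probes beside the brightest ones. Of these, 88 in Arg260 and 86 in WT lay within 0.3 log2 units of the change of the brightest probe. The other probes that differed by more in WT were 18 probes of 17 genes, and each of them read a higher change than the brightest. All 18 were among the 20 probes that were more than 3 log2 units dimmer than the brightest probe of their gene, and 0 of the 84 probes at most 3 units dimmer differed by so much. Of the 18, 16 were called higher in Arg260 and 17 in WT. The 18 had been picked for a higher change in WT, so that these counts follow in part from the choice. The share called higher over all probes was not counted. Placed on mm9, 15 of the 18 lay downstream of the brightest probe in the direction of transcription and 3 upstream, whereas 29 of the other 81 placed probes lay downstream. Position and brightness were not separated.

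Rps15a, a protein of the small subunit, gave an example. Its brightest probe changed by -0.02 in Arg260 and -0.01 in WT, and a probe 4322 bases downstream of it read -0.18, 0.04, 0.07 and -0.09 in Arg260 E2 and -2.19, -1.85, -2.07 and -1.58 in Arg260 PLB. In WT it read -0.0020, -0.17, 0.05 and 0.03 with E2 and -2.05, -1.86, -2.04 and -2.18 with PLB. That probe rose by 1.88 in Arg260 (adjusted p = 5.77e-09 in limma over all probes) and by 2.01 in WT (3.04e-09), with no overlap. The last 30 bases of the probe, which lies on mm9 at chr7:125248322-125248381 on the minus strand, are atgatgagtcaccatcattcttggtgaatc.

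A probe of Rpsa 350 bases downstream rose by 1.31 in Arg260 and 1.26 in WT, and a probe of Rpl30 1818 bases upstream by 1.17 in Arg260 and 1.15 in WT. A probe of Rps27a 2025 bases upstream was well above background on 8 of 16 arrays and rose by 1.29 in Arg260 and 2.43 in WT, with standard errors of 0.514. Averaging all probes of a gene in place of the brightest turned the direction of Rpl30 (0.25 in each genotype). What these probes hybridise to beside the mature mRNA was not tested. The chromosome given in the files matched that of the RefSeq gene for 82 of 84 members. The exceptions were Rps27 and Rps29, whose probes the files place on chromosomes 9 and 2 and whose genes lie on chromosomes 3 and 12, and their values are uncertain in that respect.

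**Figure D5:**
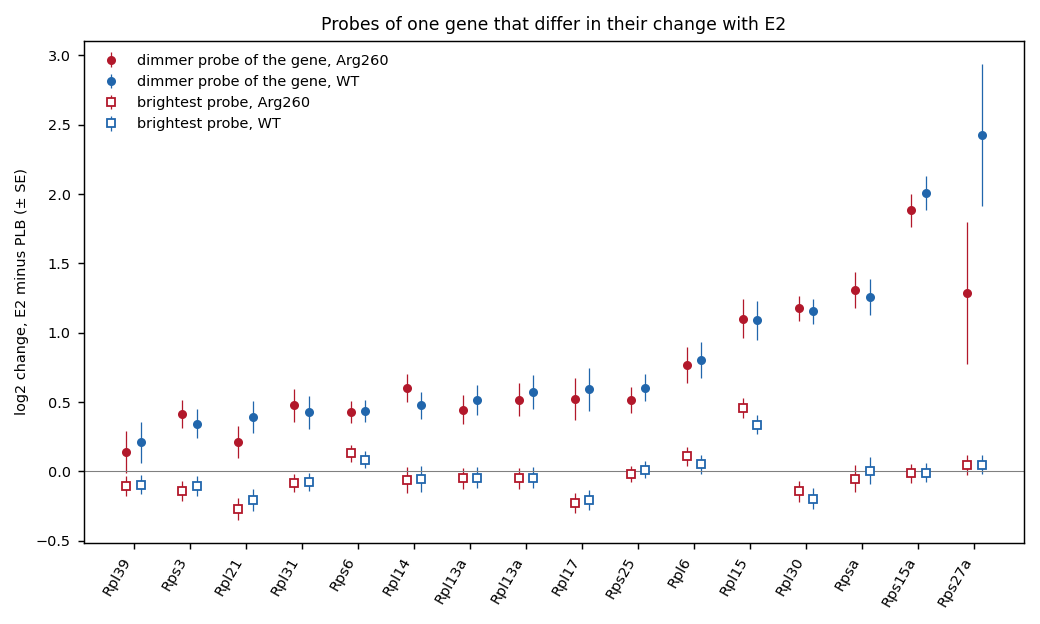
Log2 change with E2 and its standard error (vertical axis) of 16 dimmer probes (filled circles) of 15 genes that read over 0.3 higher than the brightest probe of the same gene in WT (open squares), in Arg260 (red) and WT (blue), ordered by the change in WT. The other 2 of the 18 probes, which include the one with the highest change, are not shown. The plotted dimmer probes run from 0.14 to 2.43, and the brightest ones of the same genes stay under 0.50.

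The last question was whether the Arg260 receptor altered these mRNAs. The difference between the responses to E2 (the Arg260 change minus the WT change) was called for 0 of 85 members, and for 0 of all genes tested (0%). The Arg260 E2 arrays against the WT E2 arrays gave 0 calls among members and 0% of all genes, and Arg260 PLB against WT PLB likewise gave 0 and 0%. At an unadjusted p under 0.05 in limma there were 0 members in each of these 3 comparisons, beside 962, 1902 and 639 of all genes. For canonical members the difference of the responses lay between -0.12 and 0.12. The median 95% interval reached 0.22 to either side, and smaller differences than that were not detectable for a typical member. This interval is not adjusted for the number of genes tested, whereas the calls are. Differences larger than 0.22 could therefore also go without a call.

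The smallest unadjusted p-values for the difference of the responses belonged to Rpl15 (0.12, 95% interval -0.09 to 0.33), Rpl28 (0.10, -0.08 to 0.27) and Rpl10a (0.09, -0.09 to 0.27), with an adjusted p of 0.9998 in limma for each. Rpl28 was called with E2 in Arg260 (0.16) and not in WT (0.07), and the difference was within its error. In PLB uteri the smallest values were those of Rps19bp1 (0.13, 95% interval -0.01 to 0.28), Rpl36al (0.22, -0.05 to 0.49) and Rps29 (0.10, -0.05 to 0.25), all Arg260 minus WT. With E2 they were those of Rpl15 (0.13, -0.02 to 0.28), Rpl10a (0.10, -0.03 to 0.23) and Rpl28 (0.10, -0.03 to 0.22). For the paralogues that rose, the difference was 0.02 for Rpl7l1 (95% interval -0.55 to 0.59), -0.19 for Rpl36al (-0.57 to 0.20), 0.09 for Rps27l (-0.21 to 0.39) and 0.27 for Rps4y2 (-0.44 to 0.98), and for Rps19bp1 it was -0.07 (-0.28 to 0.13).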

How the data were processed

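Agilent one-colour arrays of 16 mouse uterus samples were read as deposited. Per the file headers, the spot intensity values were made by Agilent Feature Extraction 10.10.1.1, which had already background-corrected the processed signal. A deposited table of the whole series gives log2 values for these arrays; the submitters' processing notes name limma without its settings. Groups came from the labels.

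Control and outlier-flagged spots were left out, spots of a probe were averaged, and log2 processed signals were centred on the 75th percentile of each array. Probes well above background on at least 4 of 16 arrays were kept (38683), with the brightest probe for each of 25892 gene names. Group means of all 16 arrays were fitted with limma 3.58.1 (R 4.3.3), with 12 residual degrees of freedom, and p-values were Benjamini-Hochberg adjusted over all genes. Precision is limited by the number of arrays. The fit was tested on simulated data with independent noise for each gene and changes added to a small part of the genes. These data held no shift shared by the genes of an array, so that they cannot show whether calls that depend on the scaling are sound. Among the members, 1 value was missing because its spot was flagged. Results of some single genes are not reported here, and counts over members include them.

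The members and lists were chosen with earlier results of these data known. Named members were Rplp0, Rps6, Rpl5, Rpl11, Rpsa, Rps27a, paralogues and their counterparts, the 8 largest called rises and falls with E2, the 3 smallest p-values in each genotype comparison, the 3 dimmest and the 3 with the widest spread, and the 2 largest rises and falls in WT of each list. Same replicate numbers did not pair samples. Alternatives changed the scaling, background correction, filter, probe choice, variance model, slide or replicate block, and left out each array in turn.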

Additional observations from a re-analysis of the deposited data

Results flagged for a closer look

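In each case below, 1 array of a group of 4 stood apart from the other 3 by more than Dixon's 95% critical value for the gap over the range. This held for 10 of the 152 groups examined, where chance gives about 1 in 20. Values are log2 signals relative to the 75th percentile of the array.

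Replicate 1 of Arg260 E2 stood low for 4 canonical genes. Rplp0 read 8.24 there, and 8.34 to 8.36 on the other arrays of the group. Rpl30 read 7.01, and 7.19 on the others. Rps24 read 7.86, and 8.11 to 8.14 on the others, and Rps23 read 7.70, and 7.80 to 7.82. Replicate 1 of WT E2 stood low for Rps27a, at 8.07 with 8.21 to 8.23 on the others, and for Rpl3, at 7.44 with 7.58 to 7.60 on the others.

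In Arg260 PLB, replicate 2 stood high for Rpl5, at 6.44 with 6.29 to 6.31 on the others. Replicate 3 stood low for Rps4x, at 6.94 with 7.15 to 7.18 on the others, and for the median deviation of the canonical members, at -0.092 with 0.060 to 0.065 on the others. Rpl39l was at -4.34 in replicate 4 of Arg260 E2, the one array of that group on which its probe was well above background, and at -7.69 to -7.56 on the others.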

How the results depend on the processing

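With all arrays, 16 members were called higher and 14 lower in Arg260 and 14 higher and 9 lower in WT, with 25 canonical members called in Arg260 and 18 in WT, and the direction of these small calls depended mainly on the scaling. Scaling by the array median gave 29 higher and 3 lower in Arg260 and 29 and 1 in WT, with a median of 0.10 in Arg260 and 0.11 in WT for members and of 0.15 and 0.12 for all genes. The 75th percentile of probes well above background on all 16 arrays gave 8 higher, 61 lower and 63 canonical calls in Arg260 and 7, 57 and 59 in WT, with medians of -0.29 in Arg260 and -0.24 in WT for members and -0.23 in each for all genes. It turned Rpl11 (-0.24), Rps27a (-0.20), Rpl3 (-0.21), Rpl28 (-0.086) and Rpl10a (-0.13) in Arg260 and Rpl28 (-0.14) and Rpl10a (-0.17) in WT. The lower and canonical calls were 29 and 42 in Arg260 and 28 and 36 in WT with quantile normalisation, 27 and 41 in Arg260 and 27 and 37 in WT with normexp and quantile, and 27 and 40 in Arg260 and 25 and 34 in WT in the deposited series table. Averaging all probes of a gene gave 26 higher in Arg260 and 24 in WT, and turned Rpsa (0.36) and Rpl30 (0.25) in Arg260 and Rpl21 (0.062) and Rpl30 (0.25) in WT. A trended, robust variance gave 14 lower in WT, and without a filter the median of all genes was 0.10 in Arg260, chosen as a measure after seeing the data, as were the canonical counts. Within slide 1, with fewer arrays, 9 members were higher, 2 lower and 6 canonical ones called in Arg260 and 7, 2 and 4 in WT, and within slide 2, 6, 0 and 2 in Arg260 and 5, 0 and 1 in WT. Leaving out 1 array in turn gave 14 to 18 higher, 10 to 16 lower, 21 to 26 canonical calls and a median of -0.08 to -0.01 in Arg260, and 12 to 17, 4 to 13, 12 to 20 and -0.07 to 0.0017 in WT. Genotype comparisons kept 0 calls among members in all of these. Replicate numbers did not pair the samples (correlations of deviations 0.07, 0.03, -0.01 and -0.05 in Arg260 and 0.17, 0.07, -0.02 and -0.03 in WT), and with the replicate block 16 were higher, 12 lower and 23 canonical ones called in Arg260 and 13, 9 and 17 in WT. Apart from scaling and array number, the cause of these shifts was not tested. Rpl39l lay at the background on most arrays, and some alternatives gave no value for it.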
